A study of Mus musculus with 2 samples.

Results

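The podocyte and glomerular filter genes were followed here in islet grafts that also held kidney RNA. The group holds 8 genes chosen by name, namely Nphs1, Podxl, Synpo, Wt1, Cd2ap, Ptpro, Magi2 and Actn4, and their measurements are all probe sets annotated with exactly 1 of these symbols. There were 12 such probe sets for 7 of the 8 genes, among 34945 non-control probe sets with 1 symbol for 18193 genes on the array. No probe set carried Magi2 as its 1 symbol in the annotation used, so Magi2 was not analysed here. Total RNA of 1 graft from a hyperglycemic recipient and of 1 graft from a normoglycemic recipient was hybridized to 1 GeneChip array each. The hyperglycemic recipient was a male mouse heterozygous for the Akita allele, a missense mutation of Ins2 that leads to insulin deficiency, and the normoglycemic recipient was a male WT C57BL/6 mouse. Both had received 50 islets of WT C57BL/6 donors below the capsule of the left kidney, and both grafts were taken after 6 hours. The effects of genotype and of blood glucose cannot be told apart in this pair, and neither the ages of the recipients nor any pooling of mice is given in the labels.

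Podocytes are the epithelial cells that cover the capillaries of the glomerulus. Their foot processes interlock, and the gaps between them are bridged by the slit diaphragm, which with the glomerular basement membrane and the fenestrated endothelium forms the filter that holds back plasma proteins. Nphs1 encodes nephrin, the adhesion molecule of the slit diaphragm. Podxl encodes podocalyxin, the negatively charged sialomucin of the podocyte surface, which endothelial cells also make. Cd2ap is an adaptor that links nephrin to the actin cytoskeleton, Magi2 a scaffold protein of the slit diaphragm, Synpo encodes synaptopodin, an actin-associated protein of the foot processes, and Actn4 encodes a cross-linker of actin filaments. Wt1 is a zinc finger transcription factor of podocytes and of mesothelium. Ptpro is a receptor tyrosine phosphatase of the podocyte surface that is also known from some leukocytes. Cd2ap and Actn4 are used by many cell types outside the glomerulus.

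Start-site windows of the genes are given first, because they differ widely in their number of CG. No difference between kinds of genes was tested on them. RefSeq windows of GRCm38.p6, each of 300 bases that span a gene start and lie mostly before it, were used for 5 of the 8 genes. The windows of a left-out chromosome were not searched for these genes but stay in the counts over all windows. Those of the 4 genes with a window and with values on the arrays are printed 5′ to 3′ with every CG in capitals. The windows are chr7:30459808-30460107 on the plus strand for Nphs1, chr6:137252049-137252348 on the plus strand for Ptpro, chr17:42876375-42876674 on the minus strand for Cd2ap and chr7:28962283-28962582 on the minus strand for Actn4.
Nphs1: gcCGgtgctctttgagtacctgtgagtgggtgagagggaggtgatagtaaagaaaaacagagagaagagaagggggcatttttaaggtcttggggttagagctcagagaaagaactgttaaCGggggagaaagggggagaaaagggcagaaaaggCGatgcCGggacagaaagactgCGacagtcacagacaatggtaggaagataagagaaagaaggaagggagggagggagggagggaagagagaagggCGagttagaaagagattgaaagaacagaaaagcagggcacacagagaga
Ptpro: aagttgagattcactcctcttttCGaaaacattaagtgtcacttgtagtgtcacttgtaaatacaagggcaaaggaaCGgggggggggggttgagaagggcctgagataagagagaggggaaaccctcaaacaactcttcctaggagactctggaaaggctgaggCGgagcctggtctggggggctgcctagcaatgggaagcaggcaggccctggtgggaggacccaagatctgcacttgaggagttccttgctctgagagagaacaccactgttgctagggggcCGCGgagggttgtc
Cd2ap: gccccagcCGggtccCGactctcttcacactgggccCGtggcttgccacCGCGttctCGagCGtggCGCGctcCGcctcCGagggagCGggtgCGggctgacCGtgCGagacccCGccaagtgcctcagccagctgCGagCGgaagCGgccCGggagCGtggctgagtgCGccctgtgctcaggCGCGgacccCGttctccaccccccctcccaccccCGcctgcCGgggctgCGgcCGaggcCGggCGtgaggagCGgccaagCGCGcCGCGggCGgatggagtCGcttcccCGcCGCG
Actn4: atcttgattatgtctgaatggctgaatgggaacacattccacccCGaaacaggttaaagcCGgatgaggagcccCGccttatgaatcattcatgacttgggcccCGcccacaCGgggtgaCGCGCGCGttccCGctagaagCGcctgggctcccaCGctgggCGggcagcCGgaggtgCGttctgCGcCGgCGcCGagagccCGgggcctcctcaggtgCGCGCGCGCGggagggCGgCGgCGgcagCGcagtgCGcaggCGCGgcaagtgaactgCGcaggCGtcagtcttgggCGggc

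The windows of Nphs1 and Ptpro held 6 and 5 CG, close to the median of 7 over all 32851 windows. The windows of Cd2ap and Actn4 held 41 and 35 CG, as many as or more than 97.0% and 93.8% of all windows. Magi2 had 2 windows, not printed since no signal was available here for this gene, one with 29 CG (88.3rd percentile) and the other with 4 CG. The motif GGGCGG, searched on both strands, was in the windows of Cd2ap and Actn4, in the Magi2 window with 4 CG and in 35.7% of all windows. The motif GCGTGGGAG, known to be bound by Wt1 and by the related factor Egr1, was in the window of Actn4 and in 0.472% of all windows. The motif GCGGGGGCG (2.91% of all windows), which can overlap with GGGCGG, and TATAAA (13.6%) were in none of the 4 printed windows. These are matches of letters and not measured binding sites.

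The authors deposited signals made with MAS5, an algorithm that gives each probe set 1 intensity on a linear scale. Signals were read against the median of their array, 91.5 for the Akita graft and 82.9 for the WT graft, and anything under it was called low. Genes were represented by their brightest probe set and counted as measured if 1 or both of its signals reached the median. With 1 array per condition there was no replicate, and no difference between the grafts could be tested. The scatter of ratios between probe sets of the same gene is given instead as a technical spread within the arrays. It was widest, at 3.25-fold (1 SD of a ratio), for pairs whose dimmer probe set had a mean signal of 1 to 64, and amounted to 1.54-fold at 64 to 256, to 1.27-fold at 256 to 1024, to 1.18-fold at 1024 to 4096 and to 1.14-fold at 4096 to 16384. Both grafts gave high signals for islet and kidney genes, such as Ins2 with 88302 in the Akita and 68738 in the WT graft and Slc27a2, a fatty acid transporter of the proximal tubule, with 68861 in the Akita and 59236 in the WT graft. As a sign of RNA quality, the 3′ control probe set of Actb was 3.99 times as bright as its 5′ control on the Akita array and 3.54 times on the WT array. For Gapdh this was 1.76 times on the Akita and 1.30 times on the WT array.

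Of the 12 probe sets, 10 reached the array median in both grafts and 2 in neither. All 7 genes were measured, each in both grafts on its brightest probe set. In the graft from the Akita mouse, 5 of the 7 genes had a lower signal than in the graft from the WT mouse and 2 a higher one, whereas 55.2% of the 12538 measured genes were lower and 44.8% higher. None of the 7 was over 2-fold lower and none over 2-fold higher, compared with 5.54% and 7.56% of all measured genes. Of all measured genes past 2-fold, 948 were higher and 695 lower with the signals as deposited, and 812 were higher and 951 lower after each array was centred on its median, which moved every log2 ratio by -0.14. Past 1.5-fold, 2 of the 7 were lower and 1 was higher, against 14.4% and 13.7% of all measured genes. The median log2 ratio of Akita over WT was -0.25 for the 7 genes and -0.06 for all measured genes. In RNA of whole grafts, fewer cells of a type and less RNA per cell cannot be told apart.

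**Figure D1:**
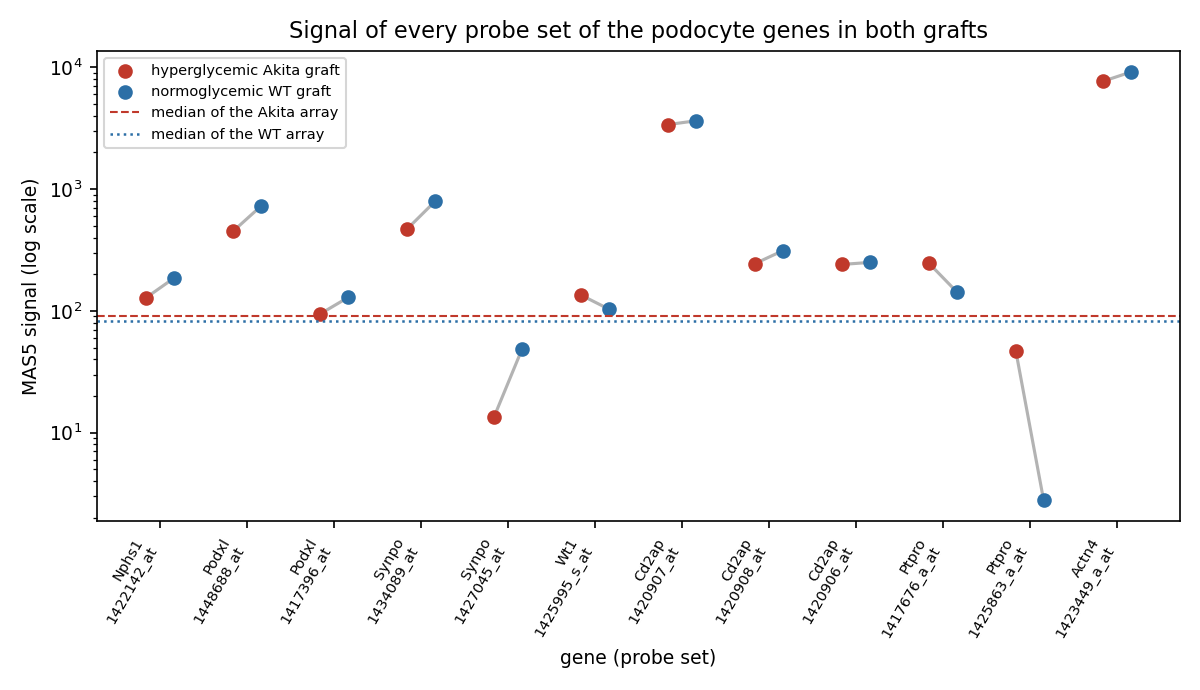
MAS5 signal (y axis, log scale) of the 12 probe sets of the podocyte genes (x axis) in the graft from the hyperglycemic Akita mouse (red, left point of each pair) and in the graft from the normoglycemic WT mouse (blue), 1 array each. Dashed and dotted lines mark the array medians of 91.5 and 82.9, and 2 probe sets, 1 of Synpo and 1 of Ptpro, lie below them in both grafts.

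Nephrin, podocalyxin and synaptopodin all had lower signals in the graft from the Akita mouse. The only probe set of Nphs1 gave 129 in the Akita graft and 187 in the WT graft. This was 1.41 times the array median in the Akita graft (57.5th percentile of all probe sets) and 2.25 times in the WT graft (64.8th percentile). Nphs1 was thus 1.45-fold lower (log2 ratio -0.54), which is within 1 SD of the spread between probe sets at such signals. On its brighter probe set, Podxl gave 453 in the Akita graft and 728 in the WT graft, 1.61-fold lower (log2 ratio -0.68). On the other probe set, Podxl had 94.4 in the Akita graft, 1.03 times the array median, and 129 in the WT graft. Both probe sets of Podxl were lower in the Akita graft, the brighter one by more than 1 SD of the spread and the dimmer one by less.

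Synpo gave 471 in the Akita graft and 794 in the WT graft, 1.68-fold lower (log2 ratio -0.75), the lowest ratio among the 7 brightest probe sets. This signal was 5.15 times the array median in the Akita graft and 9.57 times in the WT graft. The second probe set of Synpo was below the medians in both grafts, with 13.5 in the Akita graft and 48.3 in the WT graft, and no fold is given for it. Podxl and Synpo were the 2 genes more than 1.5-fold lower in the Akita graft.

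Cd2ap and Actn4, which anchor the slit diaphragm to actin and are not confined to podocytes, differed less between the grafts. Cd2ap had 3 probe sets, all lower in the Akita graft by small amounts. The brightest gave 3390.5 in the Akita graft and 3641 in the WT graft, 1.07-fold lower and within 1 SD of the spread. The second gave 244 in the Akita graft against 312 in the WT graft (1.28-fold lower), and the third 241 against 250.0 (1.04-fold lower). The second was just beyond 1 SD of the spread (log2 ratio -0.354 against 0.345), and the third was within it. The signals of these 3 probe sets for 1 gene thus ranged from 2.63 to 37.1 times the median of the Akita array, and their ratios were all within 1.28-fold. Actn4 gave 7677 in the Akita graft and 9140.2 in the WT graft on its only probe set, at the 97.5th percentile of the Akita and the 97.9th of the WT array. It was 1.19-fold lower, a log2 ratio of -0.25 against 0.19 for 1 SD of the spread at such signals.

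Ptpro and Wt1 were the 2 genes with higher signals in the graft from the Akita mouse. Ptpro gave 247 in the Akita graft and 143 in the WT graft on its brighter probe set, 1.72-fold higher (log2 ratio 0.78, compared with 0.62 for 1 SD of the spread). Its other probe set had 47.0 in the Akita graft and 2.79 in the WT graft, both below the medians, and no fold is given. Leukocyte genes were read beside Ptpro, on a list of genes of macrophages and B cells. All 10 genes of this list with a probe set were measured and higher in the Akita graft, with a summed signal of 83861 against 10666 in the WT graft and a median log2 ratio of 2.74. Most of this sum came from Lyz2, with 55987 in the Akita graft and 5539 in the WT graft. The WT signals of Itgam (74.7), Cd79b (10.3) and Ms4a1 (63.3) were below the array median. The 7 genes that reached the median in both grafts had a median log2 ratio of 2.69. Of the defining genes of this list, Adgre1, a surface protein of macrophages, had 2673 in the Akita graft against 447 in the WT graft. Csf1r, the receptor of macrophage colony-stimulating factor, had 6769 against 1872. Both arrays gave these genes signals above 0, as they did every gene, and the part of leukocyte RNA in the Ptpro signal was not tested.

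Wt1 gave 135 in the Akita graft and 103 in the WT graft, which was 1.47 times the array median in the Akita graft and 1.25 times in the WT graft. It was 1.30-fold higher in the Akita graft (log2 ratio 0.38), within 1 SD of the spread. Its only probe set has a name that ends in _s_at, which marks probe sets that can bind more than 1 transcript. Genes of the mesothelium, the other tissue of Wt1 at the kidney surface, were mostly low. Of 13 on the array 4 were measured, 2 of them lower and 2 higher in the Akita graft (median log2 ratio 0.15). The keratin gene Krt19 had 159.8 in the Akita graft against 92.4 in the WT graft (1.73-fold higher), and Gpm6a, which encodes a membrane glycoprotein, 4640 against 3490 (1.33-fold higher). Krt7, another keratin gene, had 1209 against 1921 in the WT graft (1.59-fold lower), and Efemp1, a matrix protein gene, 284 against 306. The summed signal of all 13 was 6599 in the Akita graft and 6042 in the WT graft, most of it from Gpm6a and Krt7, which other cells also express. Among the defining markers of mesothelium, named outside the rule for naming genes, Msln, which encodes mesothelin, had 40.4 in the Akita graft and 39.4 in the WT graft, and Upk3b, which encodes a uroplakin, 11.7 in the Akita graft and 29.9 in the WT graft, all below the medians. Of the other low genes of the list, Upk1b, Lrrn4, Muc16, Bnc1 and Igfbp6 were higher in the Akita graft, and Rspo1 and Nkain4 lower. None of the 13 was at 0, which held for every gene on the arrays, and the part of mesothelial RNA in the Wt1 signal was not tested.

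**Figure D2:**
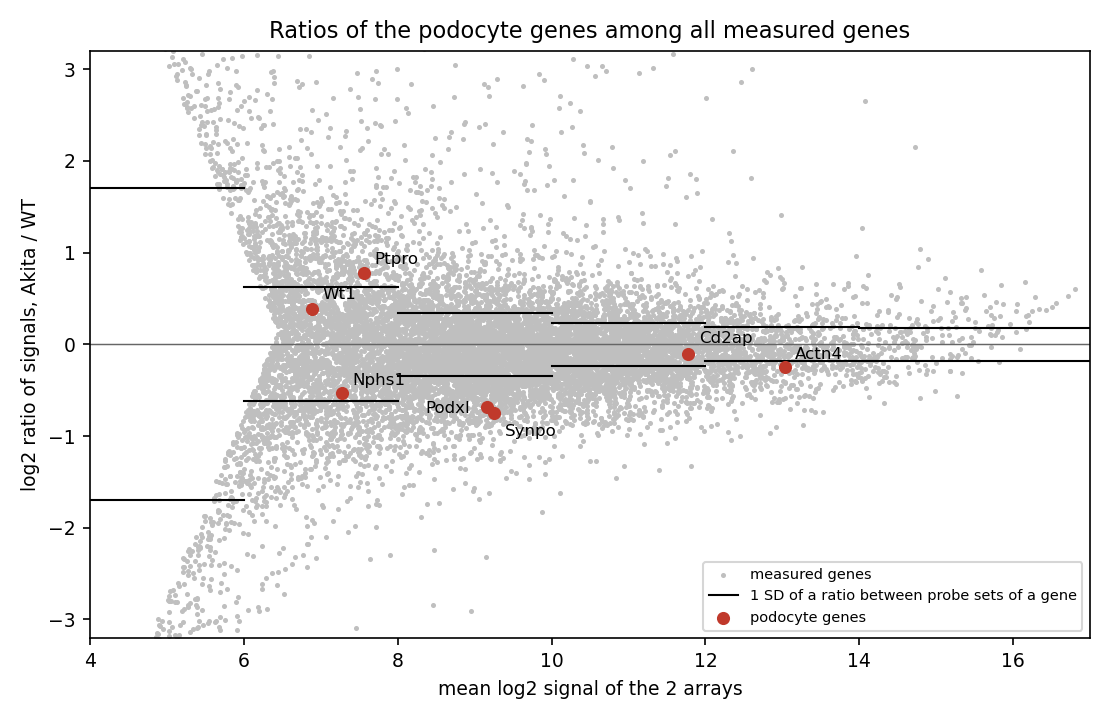
Log2 ratio of the Akita over the WT signal (y axis) against the mean log2 signal of both arrays (x axis) for the measured genes (grey) and the 7 podocyte genes (red), 1 probe set per gene. Black lines mark 1 SD of a ratio between probe sets of a gene on either side of 0, and 205 measured genes lie outside the axes. Synpo, Podxl and Actn4 lie below the lower line, Ptpro above the upper one, and Nphs1, Wt1 and Cd2ap between the lines.

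Other genes known from podocytes, listed from general knowledge, were mostly lower in the graft from the Akita mouse. Of the 27 listed, 25 had a probe set and 21 were measured, of which 16 were lower and 5 higher (median log2 ratio -0.53). Past 1.5-fold, 9 of the 21 were lower and 1 was higher, against 14.4% and 13.7% of all measured genes, and past 2-fold 3 were lower and 1 was higher, against 5.54% and 7.56%. Of these 4 genes past 2-fold, Ddn alone had both signals at or above the medians. Of the 18 that reached the median in both grafts, 14 were lower (median log2 ratio -0.46), as were 55.5% of all 10816 such genes. Ddn, which encodes dendrin, a partner of nephrin and Cd2ap, gave 93.1 in the Akita graft and 217 in the WT graft (2.33-fold lower). Sema3g, a secreted semaphorin, had 177 against 329 in the WT graft (1.87-fold lower), and Pla2r1, a receptor of phospholipase A2 known as an autoantigen of human membranous nephropathy, 108 against 196 (1.82-fold lower). Tcf21, a transcription factor of podocytes and of stroma, had 129 in the Akita graft and 233 in the WT graft.

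The brightest measured members of the same list were Npnt, Clic5, Vegfa and Fat1. Npnt, which encodes the matrix protein nephronectin, gave 779.6 in the Akita graft and 1384 in the WT graft (1.78-fold lower), and Clic5, an actin-associated chloride channel protein of foot processes, 934 in the Akita graft and 1462 in the WT graft (1.57-fold lower). Both differences exceeded 1 SD of the spread, at 1.18-fold for such signals. Vegfa, the vascular growth factor that podocytes supply to the endothelium and tubules also make, had 1043 in the Akita graft and 1232 in the WT graft, and Fat1, a large protocadherin, had 1066 in the Akita graft against 823 in the WT graft. The other 3 genes past 2-fold, named after their values were seen, each had 1 signal below the median. Plekhh2 gave 4.75 in the Akita graft and 115 in the WT graft, and Lmx1b, a transcription factor of podocytes, 39.9 in the Akita graft and 102 in the WT graft. With signals raised to the array medians these were 1.25-fold and 1.12-fold lower. Rhpn1 gave 186 in the Akita graft and 21.0 in the WT graft, and with signals raised to the array medians it was 2.24-fold higher.

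The broadly expressed partners of the slit diaphragm and of the foot process cytoskeleton stayed within 1.5-fold. Of 28 measured genes, 18 were lower and 10 higher in the Akita graft, with a median log2 ratio of -0.07. Slc9a3r1, a scaffold that binds podocalyxin and many transporters of the brush border, had signals of 21499.7 in the Akita graft and 24069.6 in the WT graft, and Ezr, which encodes ezrin, the linker of such complexes to actin, 14601 in the Akita graft and 13722 in the WT graft. The 3 widest ratios were those of Sh3kbp1, a paralogue of Cd2ap (346 against 240 in the WT graft, 1.44-fold higher), Inf2, an actin regulator (107 against 149, 1.39-fold lower), and Cask, a membrane scaffold (579.6 against 420.0, 1.38-fold higher).

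Genes of the glomerular basement membrane were all measured, and 9 of the 12 were lower in the graft from the Akita mouse (median log2 ratio -0.19, 0 past 2-fold). The collagen IV chains that assemble in the mature glomerular membrane and also occur around some tubules gave 1283 in the Akita graft against 1403 in the WT graft for Col4a3, 2165 against 2714 for Col4a4 and 1026 against 1588 for Col4a5. Col4a5 was thus 1.55-fold lower. Nid1, which links laminin to collagen IV, had 350.0 against 578 in the WT graft (1.65-fold lower), and Agrn, a heparan sulfate proteoglycan of this membrane, 1051 against 1604 (1.53-fold lower). Tinagl1, a matrix protein, went the other way with 373 in the Akita graft and 245 in the WT graft (1.52-fold higher).

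Genes of endothelium, of mesangium and mural cells and of the glomerular capsule were considered next, because Podxl is also made by endothelium. No part of their signals was assigned to the glomerulus, since whole grafts were measured. Of 16 measured endothelial genes, 15 were lower in the Akita graft (median log2 ratio -0.50), and the summed signal of the 17 genes with a probe set was 6762 in the Akita graft and 9667 in the WT graft. Emcn, a surface sialomucin, had 298 in the Akita graft against 513 in the WT graft, and Plvap, a protein of endothelial fenestrae, 709.6 against 1187. Smaller differences were those of Flt1, with 915 in the Akita graft against 1047 (1.14-fold lower), and Esm1, with 640 against 576 (1.11-fold higher). None of the endothelial genes was at 0 on either array, which held for every gene, and the part of endothelial RNA in the Podxl signal was not tested. Of 11 measured genes of mesangium and mural cells, 10 were lower (median log2 ratio -0.50), such as Pdgfrb, the receptor that holds mesangial cells in the glomerulus, at 456 against 1205 in the WT graft (2.64-fold lower). Rgs5, the brightest gene of this list, had 1377 in the Akita graft against 1461 in the WT graft (1.06-fold lower). The summed signal of the list was 4334 in the Akita graft and 6587 in the WT graft. Of 7 measured genes known from the parietal epithelium of the glomerular capsule, most of which other epithelia also use, 5 were higher and 2 lower (median log2 ratio 0.37), and Krt8, a keratin, had 19044 in the Akita graft and 13179 in the WT graft.

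Tubules served as the remaining kidney reference. The median log2 ratio of the 16 genes of the proximal tubule, all of them measured, was -0.03 and 0 were past 1.5-fold, such as Fbp1, an enzyme of gluconeogenesis, at 68762 in the Akita graft and 71022 in the WT graft. Genes of the other nephron segments had a median of -0.58, and 13 of the 14 measured were lower. Among them, Slc12a1 had 1103 in the Akita graft and 3035 in the WT graft (2.75-fold lower). Calb1 had 19842 in the Akita graft and 20458 in the WT graft (1.03-fold lower). Set against the median of the proximal tubule genes, the median log2 ratio of the 7 podocyte genes was -0.23 and that of the other podocyte genes was -0.50. Set against the endothelial genes instead, these medians were 0.25 and -0.023. The other nephron segments, whose median was below those of both podocyte lists, were not used as a reference. The sign of such values thus depends on the list chosen. Islet endocrine genes had a median log2 ratio of 0.21 (13 measured, 8 of them higher), and platelet genes, included because podocalyxin is known from megakaryocytes, 1.04 (7 measured, 5 of them higher). The platelet median was the value of Gp9, whose WT signal of 50.7 was below the array median. For the 5 platelet genes that reached the median in both grafts it was 0.64, with 2 of them lower. The lists overlap in part, since Kirrel, Sh3kbp1, Magi1, Kirrel3, Cd34 and Ptprb stand in 2 of them each. No list median was tested between the grafts or against another list.

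**Figure D3:**
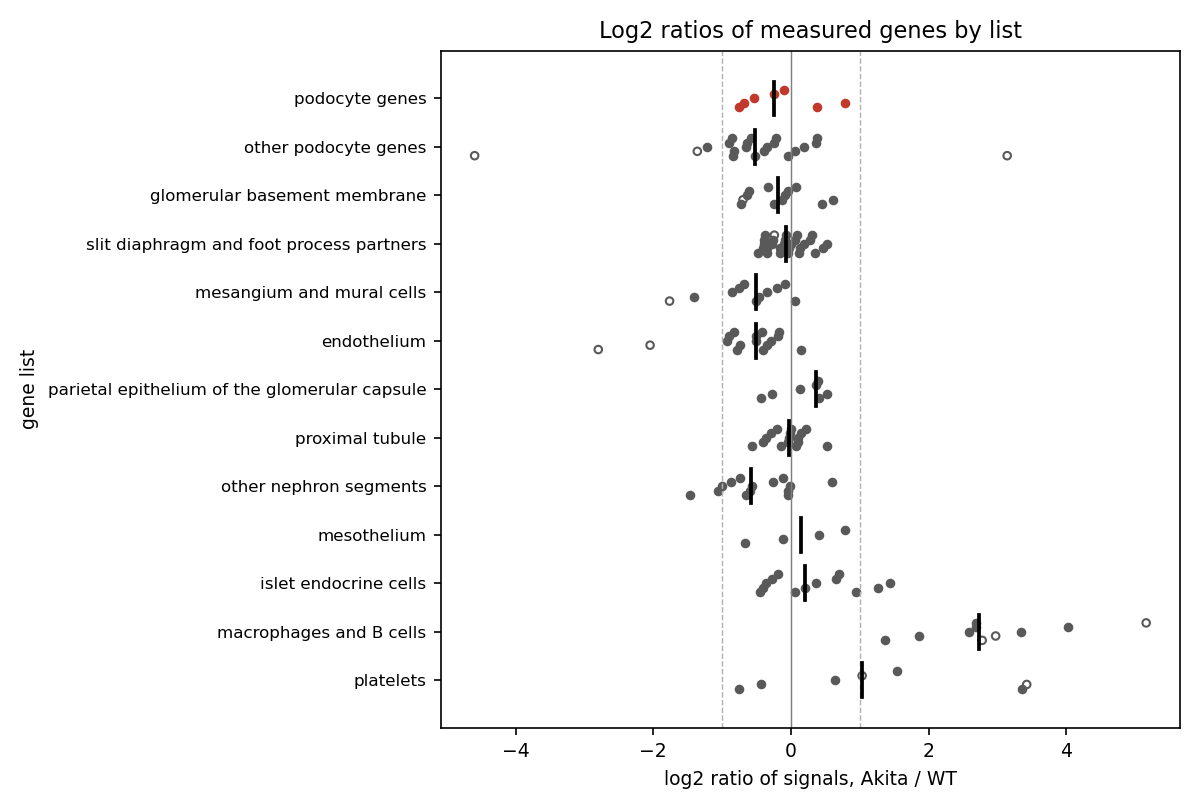
Log2 ratio of the Akita over the WT signal (x axis), 1 point per measured gene, for the podocyte genes (red) and 12 other gene lists. Filled points reached the array median in both grafts and open points in 1, black bars are list medians, and dashed lines are drawn at 2-fold. Medians of the podocyte genes (-0.25), the other podocyte genes (-0.53), mesangium and mural cells (-0.50) and endothelium (-0.50) lie left of 0. That of the other nephron segments (-0.58) is the lowest of the lists shown, and that of the proximal tubule (-0.03) lies near 0.

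Relatives of the podocyte genes were read on the same arrays. Of 15 paralogues and related genes with a probe set, 10 were measured, 6 of them lower and 4 higher in the Akita graft (median log2 ratio -0.18). Actn1, the alpha-actinin of many non-muscle cells, gave 1001 in the Akita graft and 1748 in the WT graft (1.75-fold lower), a wider difference than the 1.19-fold of Actn4. Actn2 and Actn3, the alpha-actinins of muscle, were below the medians in both grafts, with 54.5 and 53.5 in the Akita graft and 55.9 and 64.4 in the WT graft. Cd34, a sialomucin of the podocalyxin family made by endothelium, had 193 in the Akita graft and 367 in the WT graft (1.90-fold lower), whereas Podxl2, the third member of that family, was below the medians at 2.97 in the Akita graft and 3.74 in the WT graft.

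Among the receptor phosphatases of the Ptpro family, Ptprb, the endothelial member, gave 410.3 in the Akita graft and 766 in the WT graft (1.87-fold lower), and Ptprj, found in many cell types, 342 in the Akita graft and 334 in the WT graft. Ptpro was thus the only 1 of these 3 phosphatases more than 1.5-fold higher. Magi1 and Magi3, scaffolds related to Magi2, had 174 and 818 in the Akita graft and 178 and 739 in the WT graft. Synpo2l, a relative of synaptopodin in muscle, had 186 in the Akita graft and 232 in the WT graft, and Synpo2 10.5 against 105, of which only the WT signal reached the median. With signals raised to the array medians, Synpo2 was 1.15-fold lower. Kirrel and Kirrel3, nephrin-like adhesion molecules, were below the medians in both grafts, Kirrel with 88.8 in the Akita graft against 25.5, and Kirrel3 with 6.86 against 10.9. Egr1, an early response gene whose zinc fingers bind a motif like that of Wt1, had 1772 in the Akita graft and 1036 in the WT graft (1.71-fold higher).

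The log2 ratios of the 7 genes were recomputed under 13 alternatives. Those of Podxl and Synpo stayed below 0 in all 13, from -0.83 to -0.18 for Podxl and from -1.30 to -0.25 for Synpo. Cd2ap and Actn4 were below 0 in 12 of 13 and turned to 0.40 and 0.25 when the endothelial genes were set to no difference. For Podxl, Synpo, Cd2ap and Actn4, raised signals, other filters on low signals and the exclusion of names ending in _s_at or _x_at changed nothing. Their brightest probe sets are untouched by these settings, which are thus no check on their direction. Raising signals to the 75th percentile of each array took Nphs1, Wt1 and Ptpro to this level in both grafts, so that their value of -0.0070 there is the ratio of the percentiles and has no direction of its own. Under the other alternatives Nphs1 was lower, from -0.68 to -0.033, the value nearest 0 being that with the endothelial genes set to no difference. Ptpro was higher in these, from 0.58 to 2.43, and Wt1 from 0.24 to 0.89. Signals raised to the 25th percentile or the median and other filters on low signals left Nphs1, Ptpro and Wt1 unchanged. So did the median over all probe sets for Nphs1 and Wt1, and the exclusion by name for Nphs1 and Ptpro. These settings are thus no check on the direction of these genes. No value for Wt1 remained once probe sets ending in _s_at were dropped.

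**Figure D4:**
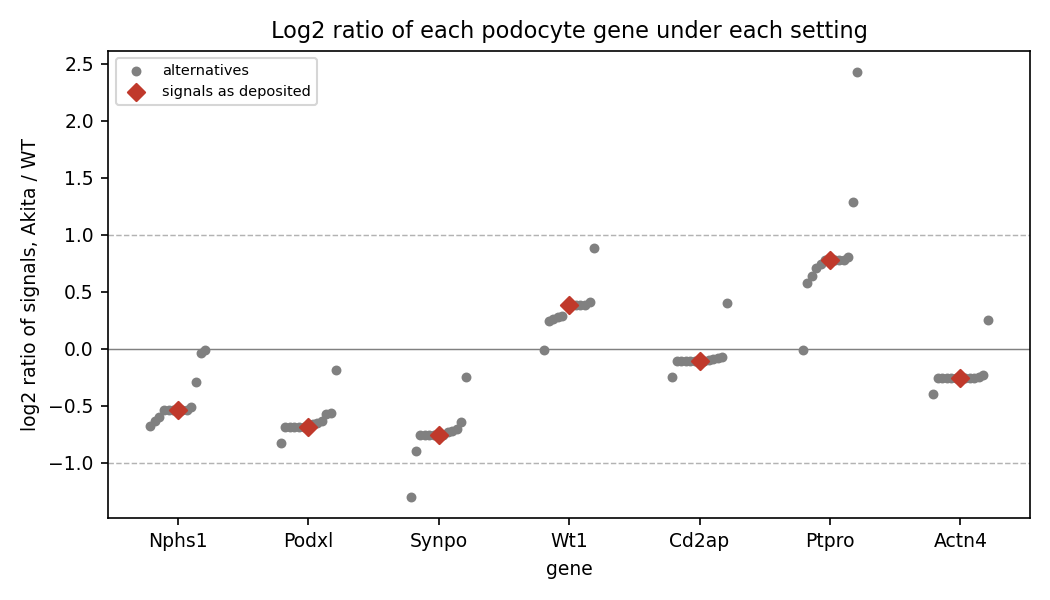
Log2 ratio of the Akita over the WT signal (y axis) of each podocyte gene (x axis) from the signals as deposited (red diamonds) and under each alternative (grey points). Dashed lines mark 2-fold, and the points of Podxl and Synpo all lie below 0.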

How the data were processed

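RNA of 1 graft per condition was measured on 1 MOE430 2.0 array each. The authors deposited 1 table of MAS5 signal intensities on a linear scale. It holds 45101 probe sets, 64 of them controls. For MAS5, version and scaling were not given in the sources used here, and the paper's methods name only the Subio Platform. Columns were matched to conditions through the labels, and the signals were compared without further scaling. The number of arrays limits the precision.

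Gene names came from the platform annotation, and probe sets with several symbols (932) or none (9211) were not named. The brightest probe set of a gene was that with the highest mean log2 signal. The members and lists were chosen with earlier results of these data known. The rule named all members and paralogues and, of each other list, up to 4 genes with the widest ratio among those that reached the median in both grafts and up to 4 with the highest signal. Msln, Upk3b, the other low genes of the mesothelium list, Plekhh2, Lmx1b and Rhpn1 are named outside this rule. Some of the genes it names are summarised by their list. The spread between probe sets was taken over all pairs of probe sets of a gene, as the SD of the difference of their log2 ratios divided by the square root of 2. The functions were tested on simulated data.

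Alternative scalings were quantile normalization, median centring, a loess fit of the ratio on signal (span 0.3, 3 iterations) and centring on the proximal tubule or endothelium list. Other alternatives were signals raised to the 25th, 50th or 75th percentile, the array median added to both signals, the median ratio over a gene's probe sets, the exclusion of names ending in _s_at or _x_at, other filters on low signals, and limits of 1.5-fold and 5-fold. Python 3.11.15, numpy 2.4.6, pandas 2.3.3, statsmodels 0.14.6 and matplotlib 3.10.9 were used.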

Additional observations from a re-analysis of the deposited data

How the results depend on the processing

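With the median ratio over all probe sets of a gene, 1 of the 7 podocyte genes was over 2-fold lower and 1 over 2-fold higher, Synpo at -1.30 and Ptpro at 2.43 on the log2 scale, since this takes in their second probe sets, with both signals below the medians. With a limit of 1.5-fold, 2 were lower and 1 was higher. Centring on the endothelial genes, which adds 0.50 to every log2 ratio, took the median of the podocyte genes to 0.25 and that of the basement membrane genes to 0.31, brought that of the other podocyte genes to -0.023, and put 1 podocyte gene, Ptpro, over 2-fold higher. The median of the other podocyte genes was also nearer to 0 with signals raised to the 75th percentile (-0.0070, the ratio of the percentiles themselves) and with the median over all probe sets (-0.11). Under the remaining alternatives the medians of the 3 lists stayed below 0, and no podocyte gene passed 2-fold. No paired analysis was possible because each condition had 1 array, and no replicate could be left out. Ratios were least precise below the array medians, as of the second probe sets of Synpo and Ptpro, where 1 SD of the spread was 3.25-fold.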
